A study of Sus scrofa with 6 samples.

Results

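Potassium channel genes were examined in the brains of 3 Rongchang pigs, a domesticated Chinese breed, and 3 wild boars. They were taken as every gene of the deposited table whose matched symbol starts with KCN, which gave 63 genes among 18225 identifiers. The table gives 1 FPKM value per gene and library (fragments normalized to transcript length and library total), so levels can be set side by side between genes within a library. Each value is relative to its library total, and comparisons between animals depend on the scaling, as given below. All 6 animals were 210 days old, and the titles give 1 library for each numbered animal. The libraries were of polyadenylated RNA. The labels name no brain region, sex or rearing condition and give no breed entry for the wild boars, whose group is taken from the library titles. The series sets the brain transcriptome of domesticated pigs against that of wild boars, and here the comparison is read for these channels.

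Potassium channels let potassium leave or enter a cell along its electrochemical gradient and so set the resting potential, the width of the action potential and the firing rate of neurons. Voltage-gated channels open on depolarization, inward rectifiers pass current best near rest, two-pore channels carry background leak current, and calcium-activated channels couple internal calcium to repolarization. Auxiliary subunits bind the pore proteins and change their gating or their transport to the membrane.

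The 63 genes comprised 28 voltage-gated pore and modifier subunits, 7 inward rectifiers, 9 two-pore subunits, 7 calcium-activated subunits (including the sodium-activated KCNT1 and KCNT2) and 12 auxiliary subunits. Of these, 47 had 3 or more libraries at 1 FPKM or above and were tested, among 13152 genes tested in all. The name table holds 89 symbols starting with KCN. The other 26, among them KCNA2, KCNJ3 and KCNJ10, were not analysed here, so class sums cover only the genes named as members.

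None of the 47 genes tested differed between the breeds (limma, adjusted p from 0.789 to 0.998), and 0 had an unadjusted p under 0.05. Over all genes, 0.0076% were called higher in Rongchang and 0% lower at an adjusted p under 0.05, and 5.42% and 0.578% at an unadjusted p under 0.05. Fold changes here are Rongchang minus wild boar of log2(FPKM + 1); the added 1 shrinks the changes of weakly expressed genes. For the channel genes they ran from −0.30 to 0.43, and the 95% intervals of the 44 genes plotted lay between −0.85 and 0.97. Their median was 0.13, the same to 2 decimals as the median of all genes tested (0.13), and 38 of 47 (80.9%) lay above 0, against 77.9% of all genes. Most genes shared that shift. Mitochondrial transcripts made up 45.2%, 39.9% and 30.0% of FPKM in Rongchang 1, 2 and 3. In wild boar 1, 2 and 3 they made up 46.8%, 41.0% and 43.6%. The median fold change of all genes was 0.104 without Rongchang 3, which had the lowest share. It was 0.115 without wild boar 1, which had the highest share. Without any 1 of the other libraries it was 0.128 to 0.157. The part of the mitochondrial share in the shift was not tested. Relative to the median gene, 22 of the 47 lay above and 25 below.

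**Figure D1:**
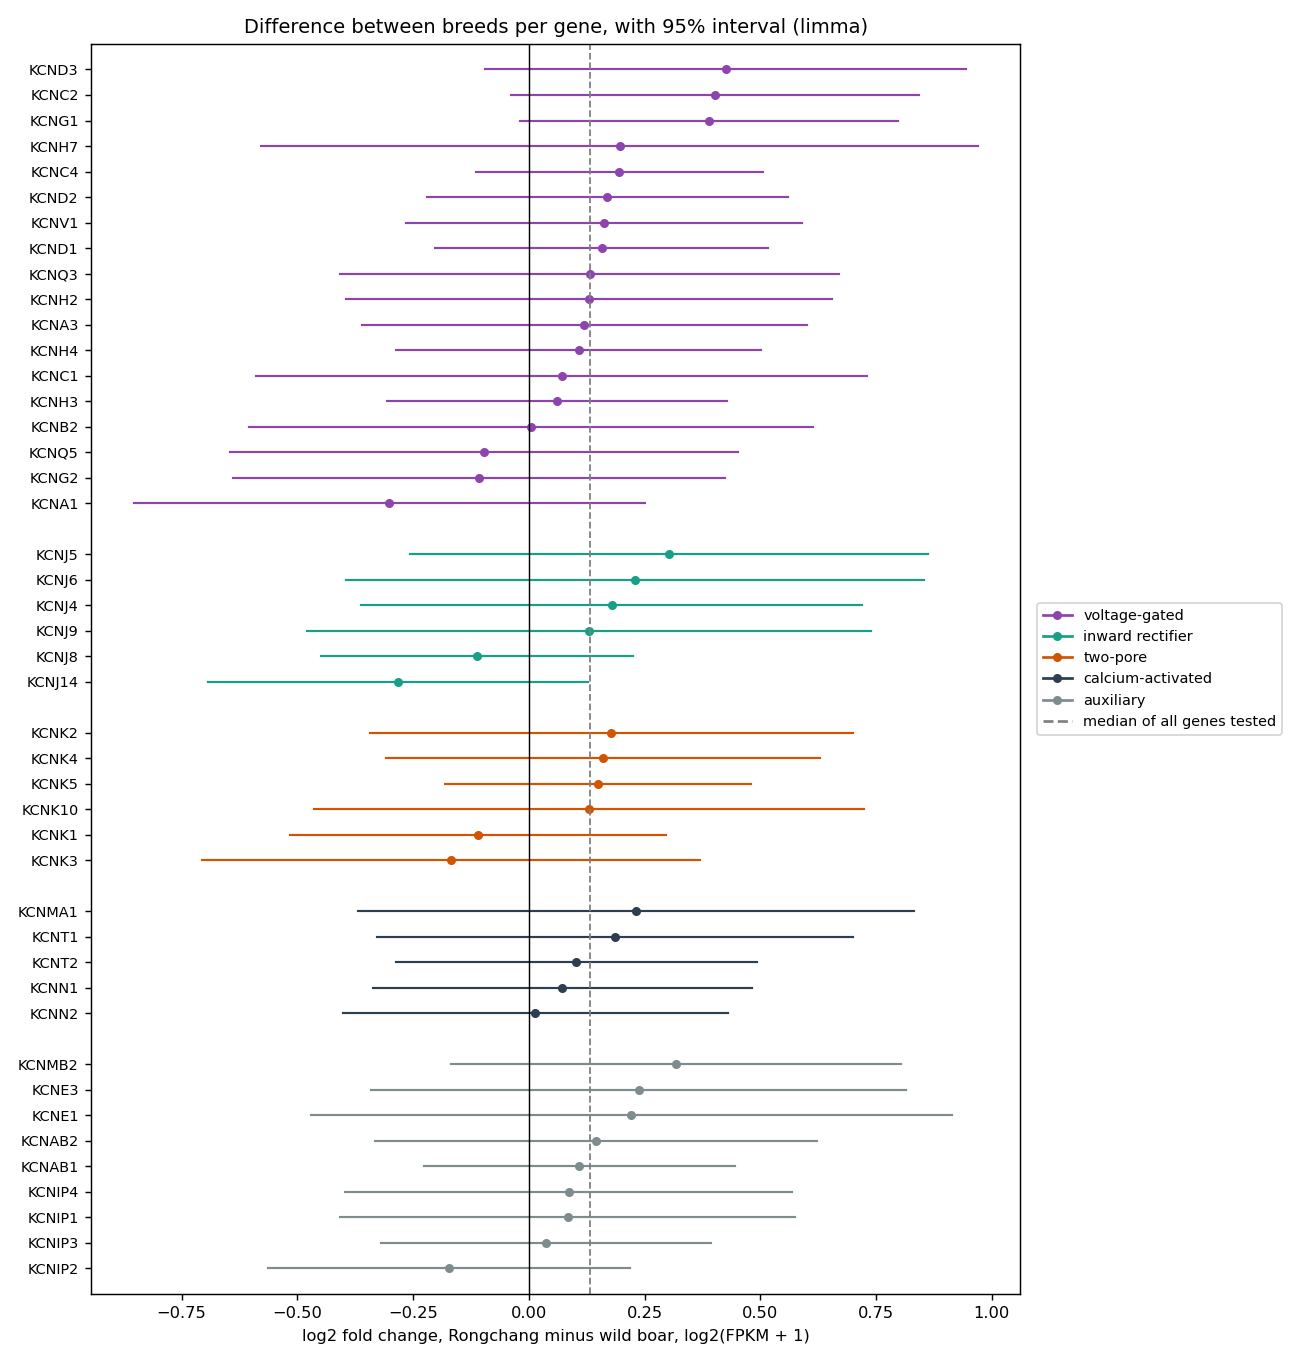
Log2 fold change of 44 of the 47 potassium channel genes tested (Rongchang minus wild boar, log2(FPKM + 1), x axis), grouped by class, with lines for the 95% interval from limma and a dashed line at the median of all genes tested, 0.13. Every interval spans 0, and points scatter on both sides of the dashed line in every class.

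The labelled tissue was checked against markers of brain cells. The neuronal list (6 of 7 genes with a value, among them SNAP25 and SLC17A7) summed to 2031 to 2907 FPKM in Rongchang and 1914 to 2615 in wild boar. Astrocyte genes (6 of 7) summed to 1787 to 1970.0 FPKM in Rongchang, against 1544 to 1922 in wild boar. Oligodendrocyte genes (5 of 7) summed to 1691 to 2069 FPKM in Rongchang, against 1296 to 2176 in wild boar. All 3 cell classes were thus abundant in every library. Of the cerebellar list, 3 of 7 genes had a value: GABRA6 and CBLN3 stayed under 1 FPKM in every library, while ZIC1 was at 4.42, 2.65 and 2.72 FPKM in Rongchang, against 2.91, 4.26 and 3.27 in wild boar. Of the choroid plexus and ependyma list, 2 of 5 genes had a value. TTR was at 0.264, 3.01 and 0.960 FPKM in Rongchang, against 1.34, 0.120 and 34.2 in wild boar, so wild boar 3 stood apart. FOXJ1 stayed under 1 FPKM in every library. In bulk tissue, fewer cells of a type and less RNA per cell cannot be told apart, and this holds for every value below.

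Voltage-gated subunits carried the largest summed level of the 5 classes, at 242, 305 and 259.6 FPKM in Rongchang, against 212, 323 and 238 in wild boar. Auxiliary subunits followed at 126, 129 and 149 FPKM in Rongchang, against 119, 139.9 and 139 in wild boar. Inward rectifiers summed to 71.0, 90.8 and 99.6 FPKM in Rongchang, against 59.1, 104 and 75.7 in wild boar. Every class overlapped between the breeds, and the lowest library of each class was wild boar 1. That library was also the lowest for 28.2% of all genes tested, the largest share of any library. Two-pore subunits averaged 64.6 ± 3.45 FPKM across Rongchang and 65.3 ± 5.79 across wild boar libraries, and calcium-activated subunits 41.3 ± 6.18 FPKM across Rongchang and 37.3 ± 7.81 across wild boar libraries (SD, n = 3 each). By class, the median fold change was 0.13 for voltage-gated genes (21 tested), 0.15 for inward rectifiers (6), 0.14 for two-pore genes (6), 0.10 for calcium-activated genes (5) and 0.11 for auxiliary genes (9). Relative to the median gene they lay between −0.03 and 0.02. With median scaling they turned to −0.025, −0.014, −0.046 and −0.054 for voltage-gated, inward rectifier, calcium-activated and auxiliary genes, and two-pore genes stood at 0.010. The inward rectifier median was −0.050 without wild boar 1 and 0.33 without wild boar 2, and the two-pore median −0.014 without wild boar 3.

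**Figure D2:**
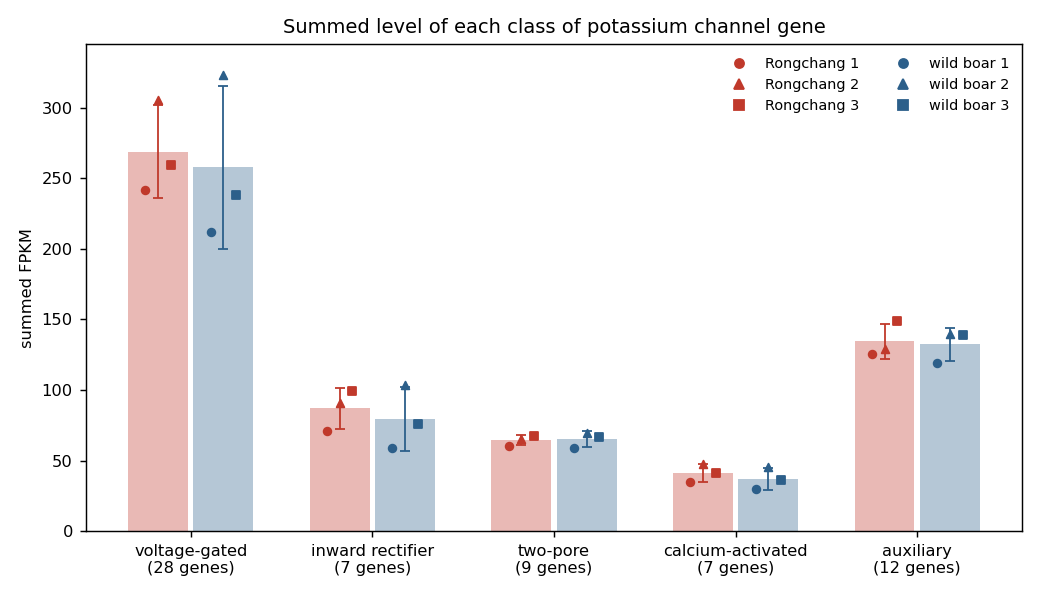
Summed FPKM of each class of potassium channel gene (y axis, from 0) in each library, with bars for the breed mean, error bars for the SD (n = 3) and a symbol for each library number. The breeds overlap in every class, and wild boar 1 is the lowest library in each.

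Among voltage-gated genes, KCNH3 (ENSSSCG00000000203) had the highest mean over the 6 libraries; it encodes an ether-a-go-go family subunit found mainly in the forebrain. It stood at 33.5, 34.8 and 38.5 FPKM in Rongchang, against 30.1, 38.5 and 34.0 in wild boar, with a fold change of 0.06 (95% interval −0.31 to 0.43). Wild boar 1 lay below all Rongchang libraries and the other wild boars within their range, and the fold change turned to −0.11 with median scaling (each library set to the same median over the genes tested). KCNV1, a silent subunit that forms no channel alone but modifies others, was close behind at 30.4, 30.7 and 38.3 FPKM in Rongchang, against 23.8, 32.3 and 32.7 in wild boar (fold change 0.16, −0.26 to 0.59; −0.0055 with median scaling). Here too, wild boar 1 alone lay below all Rongchang libraries.

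The Kv3 subunits, encoded by the KCNC genes, repolarize fast-spiking neurons quickly and so permit high firing rates. Markers of inhibitory neurons, the class that holds many fast-spiking cells, summed to 357, 289.6 and 399 FPKM in Rongchang, against 322, 362 and 359.7 in wild boar (6 of 7 genes with a value). Single markers differed in order. PVALB was at 128, 65.8 and 154 FPKM in Rongchang, against 119, 82.5 and 138 in wild boar, lowest in library 2 of each breed. GAD1 was highest there, at 79.4, 83.0 and 71.4 FPKM in Rongchang, against 55.4, 87.5 and 75.6 in wild boar. The part of these markers in KCNC levels was not tested. KCNC2 (ENSSSCG00000000516) was at 26.8, 25.5 and 17.99 FPKM in Rongchang, against 16.2, 19.7 and 16.01 in wild boar (0.40, −0.04 to 0.84; limma, adjusted p = 0.789). Rongchang 3 lay inside the wild boar range and the other two Rongchang libraries above it. KCNC4, singled out after its values were seen, was the 1 channel gene tested whose breeds did not overlap, at 3.80, 3.95 and 4.22 FPKM in Rongchang, against 3.63, 3.27 and 3.18 in wild boar (0.20, −0.11 to 0.51; limma, adjusted p = 0.843).

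That 1 of 47 genes (2.13%) with every Rongchang library above every wild boar library compares with 11.4% of all genes tested, and 0 genes with every Rongchang library below compare with 1.12%. Median scaling moved the median fold change of all genes from 0.13 to −0.02. The split then turned round, to 0 genes with Rongchang above (3.87% of all genes) and 4 with Rongchang below (5.03%): KCNIP2, KCNIP3, KCNJ14 and KCNJ8. KCNC4 then overlapped between the breeds, so no direction of separation held under both scalings.

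KCNA1 and KCND3 lay near opposite ends of the voltage-gated range. KCNA1 (ENSSSCG00000000716), a Kv1 subunit of axons that is mutated in human episodic ataxia, was at 14.3, 23.8 and 14.3 FPKM in Rongchang, against 18.3, 26.7 and 19.2 in wild boar (−0.30, −0.85 to 0.25; limma, adjusted p = 0.856). Rongchang 2 lay inside the wild boar range, while Rongchang 1 and 3 lay below it. KCND3 (ENSSSCG00000026680), a Kv4 subunit of the fast-inactivating A-type current that holds back dendritic excitation, was at 3.32, 5.73 and 3.08 FPKM in Rongchang, against 2.49, 3.35 and 2.22 in wild boar. Its fold change of 0.43 (−0.10 to 0.95; limma, adjusted p = 0.792) was the highest of the 47, and without Rongchang 2 it was 0.20. KCNG1 (ENSSSCG00000007476), a silent subunit that modifies Kv2 channels, had the smallest p of the 47 (limma, adjusted p = 0.789). It stood at 16.5, 22.0 and 22.6 FPKM in Rongchang, against 14.0, 17.4 and 14.3 in wild boar (0.39, −0.02 to 0.80), with Rongchang 1 below wild boar 2 and the other two Rongchang libraries above all wild boars.

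Libraries of the same animal number deviated together, most clearly those numbered 2, so the number was also added to the fit as a replicate block (a term for each number). KCNG1, KCNC2 and KCND3 were then higher in Rongchang and KCNA1 lower at an unadjusted p under 0.05. After adjustment over all genes 0 passed (limma with the block, adjusted p = 0.237 for KCNG1, 0.238 for KCND3, 0.243 for KCNC2 and 0.249 for KCNA1). The 3 higher genes are 6.38% of the 47, against 16% of all genes tested in that fit, and the 1 lower gene is 2.13%, against 1.41%. With median scaling alone, 0 were higher (1.87% of all genes) and 1 lower (1.89%), KCNJ14. With the block and median scaling together, 0 were higher (5.02% of all genes) and 5 lower (5.47%), among them KCNIP2, KCNJ14, KCNA1 and KCNQ5. KCNA1 was the 1 gene past that mark in both fits with the block.

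**Figure D3:**
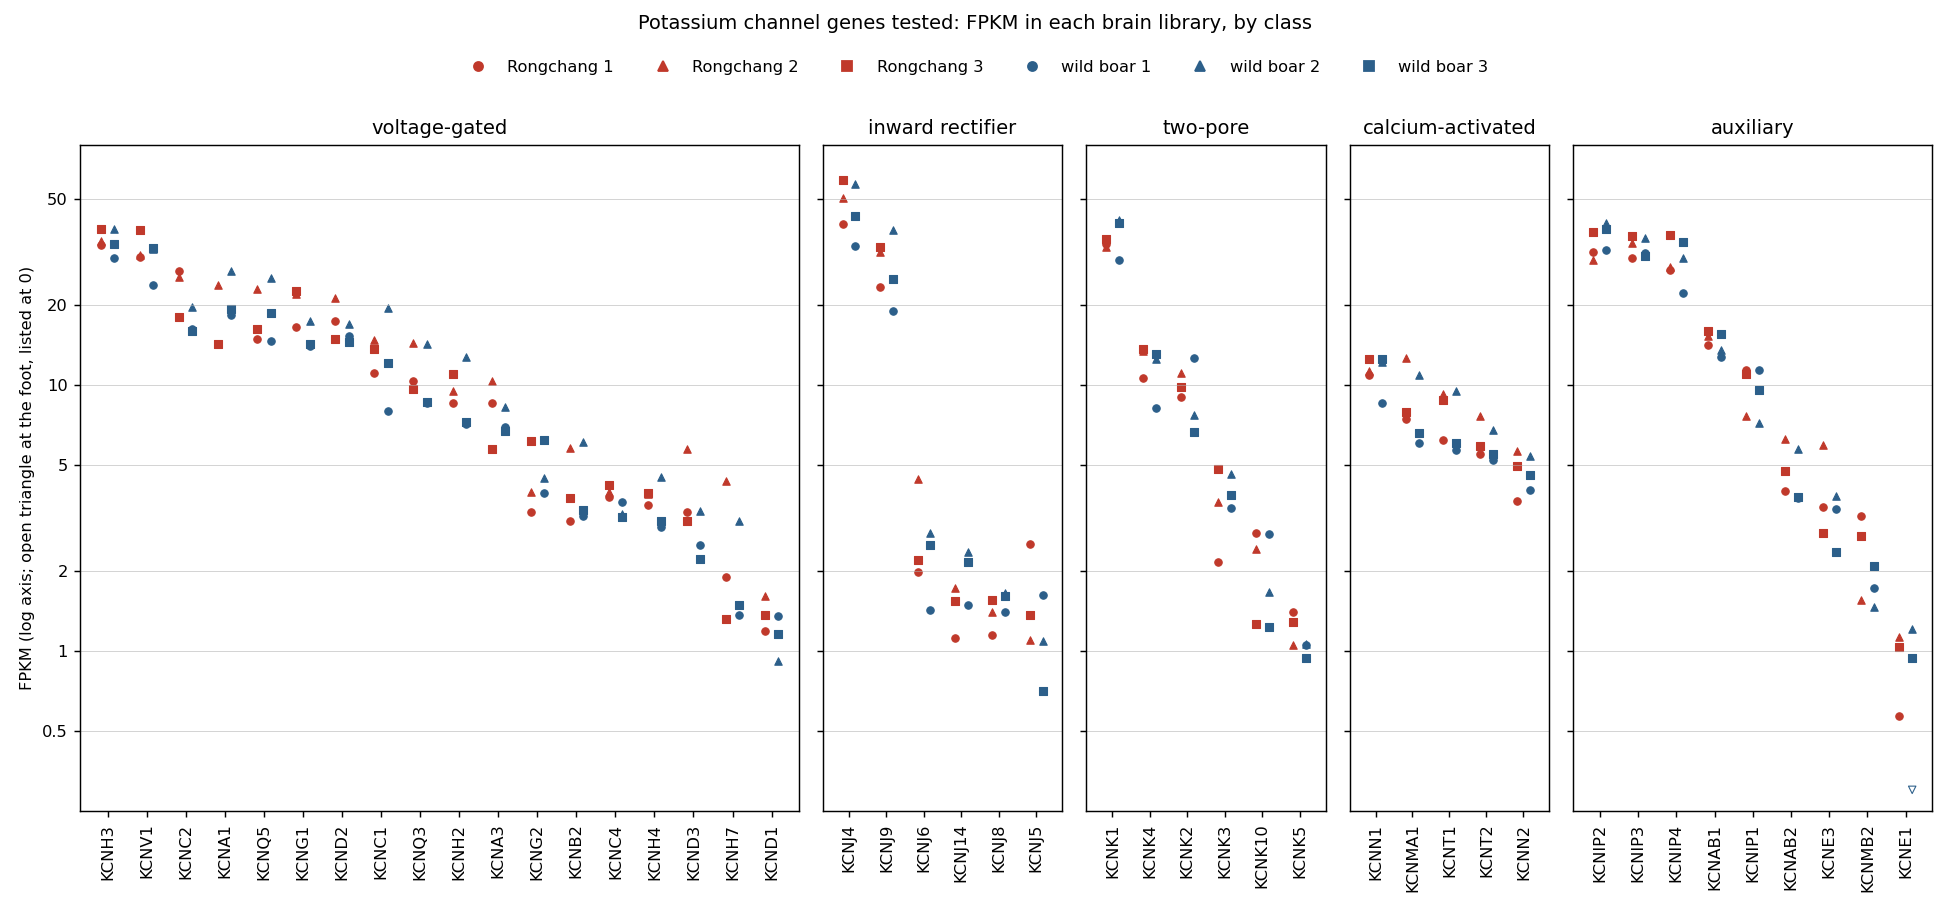
FPKM of 44 of the 47 potassium channel genes tested (y axis, log scale) in each of the 3 Rongchang and 3 wild boar libraries, by class and in descending order of the mean over all 6. Symbols mark the animal number, an open triangle at the foot marks KCNE1 listed at 0 in wild boar 1, and the breeds overlap for every gene plotted except KCNC4.

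KCNH3, KCNV1, KCNQ3, KCNQ5 and KCNB2 shared their span of fold changes with a further group of voltage-gated genes, given for description only. It comprised the A-type genes KCND1 and KCND2, KCNC1, the Kv1 gene KCNA3, the ether-a-go-go family genes KCNH2 and KCNH4 and the silent subunit gene KCNG2. Their fold changes ran from −0.11 for KCNG2 to 0.17 for KCND2. KCND2, the most abundant of them on average, was at 17.4, 21.1 and 14.9 FPKM in Rongchang, against 15.3, 17.01 and 14.5 in wild boar (0.17), and KCNC1 at 11.1, 14.7 and 13.7 FPKM in Rongchang, against 7.97, 19.5 and 12.1 in wild boar (0.07). In each of them the breeds overlapped.

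Inward rectifiers were dominated by a pair of genes. KCNJ4 (ENSSSCG00000000106), a strong inward rectifier of forebrain neurons, had the highest mean of all channel genes, with 40.2, 50.2 and 59.2 FPKM in Rongchang, against 33.4, 56.7 and 43.1 in wild boar (0.18, −0.36 to 0.72). KCNJ9 (ENSSSCG00000006393) encodes a subunit of the GIRK channels, which open when inhibitory G-protein-coupled receptors release G-protein beta-gamma subunits. It stood at 23.3, 31.5 and 33.1 FPKM in Rongchang, against 19.0, 38.4 and 25.0 in wild boar (0.13, −0.48 to 0.74). Both overlapped widely, with wild boar 1 lowest, and together they made up 89.5% to 92.7% of the class sum in Rongchang and 88.7% to 91.6% in wild boar. KCNJ9 turned to −0.04 with median scaling.

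The other GIRK subunits in the table were far lower. KCNJ6 was at 1.98, 4.41 and 2.204 FPKM in Rongchang, against 1.42, 2.78 and 2.51 in wild boar (0.23, −0.40 to 0.85), highest in library 2 of each breed. KCNJ5 was at 2.53, 1.10 and 1.37 FPKM in Rongchang, against 1.62, 1.09 and 0.707 in wild boar (0.30, −0.26 to 0.86), so its order among libraries was not that of KCNJ6 or KCNJ9. KCNJ14, a strong inward rectifier related to KCNJ4, had the lowest fold change of the class. It stood at 1.12, 1.72 and 1.54 FPKM in Rongchang, against 1.49, 2.36 and 2.16 in wild boar (−0.28, −0.69 to 0.13; limma, adjusted p = 0.816), with each Rongchang library below the wild boar library of the same number. KCNJ8, the pore of ATP-sensitive channels in pericytes and vascular muscle, averaged 1.37 ± 0.206 FPKM in Rongchang and 1.56 ± 0.136 in wild boar (SD, n = 3 each; −0.11). Beside it, the 4 endothelial and mural genes with a value summed to 21.4 to 27.3 FPKM in Rongchang and 32.0 to 34.3 in wild boar. Whether vessel content has a part in the level of KCNJ8 was not tested.

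Of the two-pore genes, KCNK1 (ENSSSCG00000010163), which encodes a weakly conducting leak channel, held 50.4% to 55.8% of the class sum in Rongchang and 50.3% to 60.8% in wild boar. It stood at 33.9, 33.03 and 35.4 FPKM in Rongchang, a narrow spread, and at 29.6, 41.5 and 40.8 in wild boar, on both sides of it (−0.11, −0.52 to 0.30). The channels of the TREK family open on membrane stretch, heat and polyunsaturated fatty acids. Of these, KCNK4 was at 10.6, 13.4 and 13.6 FPKM in Rongchang, against 8.21, 12.5 and 13.0 in wild boar (0.16, −0.31 to 0.63). KCNK2 was at 8.998, 11.1 and 9.81 FPKM in Rongchang, against 12.6, 7.71 and 6.63 in wild boar (0.18, −0.34 to 0.70), with wild boar 1 the highest. That library was the lowest for 21 of the 47 genes and for 28.2% of all genes tested. The fold change of KCNK2 was 0.42 without wild boar 1 and 0.0077 without wild boar 3. KCNK10 averaged 2.15 ± 0.788 FPKM across Rongchang and 1.88 ± 0.784 across wild boar libraries (SD, n = 3 each). KCNK5, an alkali-sensitive leak channel, averaged 1.24 ± 0.176 FPKM across Rongchang and 1.02 ± 0.0679 across wild boar libraries. KCNK3, an acid-sensitive leak channel, was at 2.16, 3.62 and 4.85 FPKM in Rongchang, against 3.44, 4.61 and 3.86 in wild boar (−0.17, −0.71 to 0.37), and without Rongchang 1 its fold change turned to 0.07.

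The 5 calcium-activated genes tested lay between 3.67 and 12.7 FPKM in every library. KCNN1 (ENSSSCG00000013892), a small-conductance channel of the after-hyperpolarization that follows a spike, led at 10.9, 11.3 and 12.6 FPKM in Rongchang, against 8.53, 12.2 and 12.5 in wild boar (0.07, −0.34 to 0.48). KCNMA1 (ENSSSCG00000010325), the large-conductance BK channel opened by both voltage and calcium, was at 7.46, 12.7 and 7.94 FPKM in Rongchang, against 6.05, 10.9 and 6.60 in wild boar (0.23, −0.37 to 0.83). Library 2 stood well above the others in each breed, and the fold change was 0.015 without Rongchang 2 and 0.47 without wild boar 2. The sodium-activated KCNT1 was at 6.22, 9.27 and 8.77 FPKM in Rongchang, against 5.68, 9.47 and 6.03 in wild boar (0.19, −0.33 to 0.70). Its relative KCNT2 was at 5.50, 7.62 and 5.90 FPKM in Rongchang, against 5.21, 6.75 and 5.49 in wild boar (0.10, −0.29 to 0.49). KCNN2, another small-conductance channel, was at 3.67, 5.65 and 4.96 FPKM in Rongchang, against 4.04, 5.39 and 4.59 in wild boar (0.01). All 5 genes tested had a fold change above 0, of which 3 lay below the median gene. With median scaling KCNN1 turned to −0.09, KCNT2 to −0.05 and KCNN2 to −0.13.

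The auxiliary class was led by the KChIP genes, whose calcium-binding products join Kv4 channels and raise their number at the cell surface. KCNIP2 (ENSSSCG00000010570) was at 31.6, 29.6 and 37.4 FPKM in Rongchang, against 32.1, 40.8 and 38.6 in wild boar (−0.17, −0.56 to 0.22). KCNIP3 was at 30.0, 34.1 and 36.2 FPKM in Rongchang, against 31.4, 35.6 and 30.5 in wild boar (0.04, −0.32 to 0.39), and KCNIP4 at 27.1, 27.8 and 36.7 FPKM in Rongchang, against 22.2, 30.1 and 34.5 in wild boar (0.09, −0.40 to 0.57). All overlapped between the breeds, and together they held 70.6% to 74.2% of the class sum in Rongchang and 72.0% to 76.1% in wild boar. KCNIP3 turned to −0.13 and KCNIP4 to −0.08 with median scaling, so KCNIP2 alone of the 3 kept its sign in both.

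KCNAB1, a beta subunit of Kv1 channels, was at 14.1, 15.3 and 15.9 FPKM in Rongchang, against 12.8, 13.6 and 15.6 in wild boar (0.11, −0.23 to 0.45; −0.05 with median scaling). KCNMB2, a beta subunit that inactivates the BK channel, was at 3.21, 1.56 and 2.71 FPKM in Rongchang, against 1.73, 1.46 and 2.08 in wild boar (0.32, −0.17 to 0.80; limma, adjusted p = 0.835). It was lowest in library 2 of each breed, the reverse of the BK pore gene KCNMA1. KCNIP1, which also partners Kv4 channels, was likewise lowest there, with 7.63 FPKM for Rongchang 2 and 7.17 for wild boar 2, against 9.59 to 11.4 in the other 4 libraries. The other auxiliary genes, KCNAB2 (a second Kv1 beta subunit) and the single-pass subunit genes KCNE3 and KCNE1, had fold changes of 0.14, 0.24 and 0.22. KCNE1 was at 0.569, 1.13 and 1.04 FPKM in Rongchang and listed at 0, 1.21 and 0.939 FPKM in the wild boar libraries. In RefSeq's Sscrofa11.1 annotation KCNIP1 overlaps KCNMB1. Other channel genes overlap further genes there, among them KCNAB1 (SSR3), KCNH7 (GCA), KCNQ3 (HHLA1) and KCNK4 (CATSPERZ), and KCNT1 and KCNT2 each overlap several. While the library kit marks strand, no source used here gives the strand setting of the counting, so reads of such overlapping genes may be shared.

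Many channel genes varied with the animal number within both breeds. This was noticed in the data and is given as a description. In 20 of the 47 genes (42.6%) the library numbered 2 was the highest of its breed in both breeds, against 28.6% of all genes tested. In 3 (6.38%) it was the lowest in both, against 21.4% of all genes. After median scaling the counts of genes highest there were 21 of 47 and 24.1% of all genes. The 20 genes comprised 11 of 21 voltage-gated, 4 of 5 calcium-activated, 2 of 6 inward rectifier, 3 of 9 auxiliary and 0 of 6 two-pore genes.

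The mean of the 2 libraries numbered 2 exceeded that of the other 4 by 0.25 on the log2(FPKM + 1) scale in the median channel gene and by 0.054 in the median of all genes tested. Wide gaps were found in KCNH7 (0.90), KCNB2 (0.68) and KCNMA1 (0.68); of these, KCNH7 and KCNB2 were picked out after their values were seen. KCNB2, a delayed rectifier of the Kv2 family, was at 3.07, 5.81 and 3.77 FPKM in Rongchang, against 3.21, 6.12 and 3.37 in wild boar. Library 2 stood well above the other libraries of its breed, and the breeds otherwise nearly coincided. KCNH7, an ERG-type subunit, was at 1.90, 4.35 and 1.31 FPKM in Rongchang, against 1.36, 3.07 and 1.49 in wild boar. The M-current genes KCNQ3 and KCNQ5, which restrain repetitive firing, were also highest in library 2 of each breed. KCNQ3 was at 10.3, 14.3 and 9.66 FPKM in Rongchang, against 8.53, 14.3 and 8.65 in wild boar, and KCNQ5 at 14.9, 23.0 and 16.2 FPKM in Rongchang, against 14.7, 25.2 and 18.6 in wild boar.

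**Figure D4:**
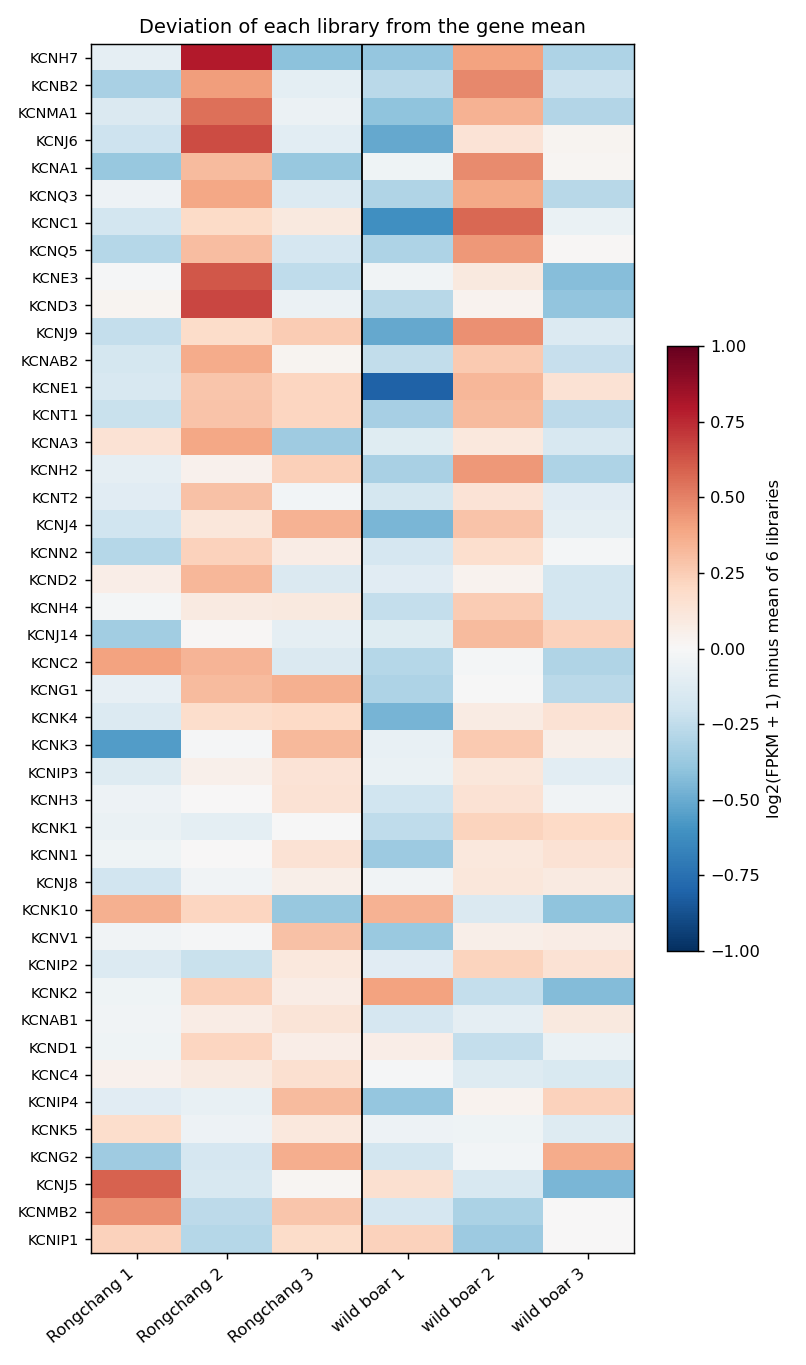
Deviation of each library from the mean of all 6 libraries, in log2(FPKM + 1), for 44 of the 47 potassium channel genes tested (rows, ordered by the mean of the 2 libraries numbered 2 minus that of the other 4). Rongchang 2 and wild boar 2 share the high values of the upper rows, from KCNH7 to KCNQ5, and the low values of KCNMB2 and KCNIP1 at the foot.

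Cell type markers moved with these libraries too. Summed oligodendrocyte genes were at 2069, 1691 and 1817 FPKM in Rongchang 1, 2 and 3 and at 2176, 1296 and 1701 in wild boar 1, 2 and 3. Summed microglial genes (5 of 7) were at 84.8, 51.2 and 87.6 FPKM in Rongchang, against 86.7, 39.7 and 70.0 in wild boar, and summed astrocyte genes at 1970.0, 1787 and 1873 FPKM in Rongchang, against 1915, 1544 and 1922 in wild boar. Blood genes (2 of 3, HBB and ALAS2) summed to 138, 67.9 and 190.2 FPKM in Rongchang, against 275, 58.5 and 213 in wild boar. The sum of library 2 was the lowest of its breed in all 4 of these lists, and in no other marker list. Single genes did not all follow: in Rongchang, MOG was highest in library 2, and SLC1A2 and SLC1A3 were lowest in library 3. Endothelial and mural genes summed to 27.3, 26.2 and 21.4 FPKM in Rongchang, against 32.1, 34.3 and 32.0 in wild boar. The inhibitory neuron list was lowest in Rongchang 2 but highest in wild boar 2. Within it, PVALB was lowest in library 2 of each breed, and GAD1 and GAD2 were highest there. The neuronal sum was 2031, 2682 and 2907 FPKM in Rongchang, against 1914, 2615 and 2498 in wild boar, where library 2 was highest in wild boar only. The skeletal muscle gene ACTA1 reached 45.7 FPKM in Rongchang 2 and 47.3 in wild boar 2, and stood at 4.23 to 16.9 in the other 4. The part of these markers in the pattern by number was not tested. The labels do not say what a number marks.

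The 16 channel genes below 1 FPKM in most libraries were not tested. They were KCNA4, KCNA7, KCNH8, KCNG3, KCNS1, KCNV2 and KCNH6 (voltage-gated), KCNJ13, a channel of choroid plexus and retinal pigment epithelium (inward rectifier), KCNK13, KCNK15 and KCNK7 (two-pore), KCNN3 and KCNN4 (calcium-activated), and KCNMB1, KCNRG and KCNMB3 (auxiliary). Their highest single value was 0.988 FPKM, for KCNK13 in Rongchang 3. KCNN3, a small-conductance channel, was at 0.832, 0.804 and 0.751 FPKM in Rongchang, against 0.472, 0.654 and 0.645 in wild boar, apart but under the filter. KCNRG was listed at 0 in every Rongchang library and at 0, 0.298 and 0.309 FPKM in wild boar. It overlaps TRIM13 in the same annotation, and depth is unknown for FPKM values, so an exact 0 sets no limit on its level.

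A list of 43 genes that assemble with, anchor or oppose potassium channels was set beside them, of which 27 had a value and 26 were tested. None of these differed between the breeds (limma, smallest adjusted p = 0.811), 0 had an unadjusted p under 0.05, and with the block 3 of 26 were higher at that mark, against 16% of all genes, with 0 passing adjustment. The median fold change was 0.10, with 19 above 0 and 8 above the median gene. ADAM22, a receptor of LGI1 found with Kv1 channels, was at 8.57, 15.5 and 8.14 FPKM in Rongchang, against 5.82, 11.4 and 5.85 in wild boar (0.44, −0.27 to 1.15; limma, adjusted p = 0.846). It was higher in Rongchang within each of the 3 numbers, and its library 2 was the highest of each breed, as for KCNA1. Its relative ADAM23 was at 15.7, 25.8 and 19.96 FPKM in Rongchang, against 11.3, 25.5 and 15.5 in wild boar (0.27, −0.42 to 0.95). The fold change of ADAM22 was 0.16 without Rongchang 2 and 0.73 without wild boar 2, and that of ADAM23 0.0095 without wild boar 1 and 0.57 without wild boar 2.

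DPP10, a partner of Kv4 channels, was at 15.7, 18.5 and 18.6 FPKM in Rongchang, against 12.7, 15.6 and 15.6 in wild boar (0.25, −0.11 to 0.61), apart by a narrow margin. HCN3, a pacemaker channel that opposes hyperpolarization, was at 2.12, 2.03 and 2.32 FPKM in Rongchang, against 1.74, 1.92 and 1.41 in wild boar (0.24, −0.10 to 0.57), also apart. These were 2 of 26 partner genes with every Rongchang library above, against 11.4% of all genes, and 0 lay below, against 1.12%. With median scaling 0 lay above (3.87% of all genes) and 1 below (5.03%). The fold changes were then 0.088 for DPP10 and 0.12 for HCN3. Calmodulin, the calcium sensor bound to small-conductance and M-current channels, was the most abundant partner. CALM2 averaged 1252 ± 268 FPKM in Rongchang and 1219 ± 248 in wild boar, and CALM3 829 ± 45.8 FPKM in Rongchang and 764 ± 75.2 in wild boar (SD, n = 3 each). Their fold changes of 0.04 and 0.12 turned below 0 with median scaling.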

How the data were processed

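RNA of 6 brain libraries was analysed, 3 per breed. The authors deposited 1 FPKM value per gene and library; the header gives no unit, which was judged from the tools and values. TopHat2 2.0.11, Cufflinks 2.2.1 and Cuffdiff are named per the submitters' processing notes, without role or order. No source used here gives the genome build or annotation, and coordinates are left out. The values sum to 568921 to 687359 per library. Read counts could not be recovered from low values (at most 23.7% of ratios between libraries, for values under 0.15 FPKM, fell in 1 window of 0.04 log2 units), so depth is unknown. Symbols were found for 10937 of 18225 identifiers (60%). No KCN symbol had more than 1 identifier. The members and lists were chosen with earlier results of these data known.

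Rongchang was compared with wild boar by limma 3.58.1 (R 4.3.3, mean-variance trend, two-sided) on log2(FPKM + 1), for genes at 1 FPKM or above in 3 or more libraries, with Benjamini-Hochberg adjustment over all 13152 and a threshold of 0.05. The procedure was tested on simulated data with independent noise, which lacked the deviations that libraries of the same number share here. Alternatives covered the pseudocount, the filter, the scaling, library weights, the block and libraries left out. Per class, the 4 genes with the highest mean are named, with the 5 highest and 5 lowest fold changes and any with an unadjusted p under 0.05; of the partner list, the 4 with the smallest p and the 3 most abundant. Some genes are not reported here. Other names were chosen after their values were seen. Titles number the animals but the labels say no more about how they were sampled, so each p-value speaks only of the spread among these 6 libraries. After subtracting breed means, libraries 1, 2 and 3 of the breeds correlated with their namesakes at r = 0.283, 0.587 and 0.368 over all genes. These lay above the bound of 0.1 taken for pairing, though Rongchang 1 with wild boar 3 (0.125) also did. Since deviations within a breed cancel out, the match at number 2 alone also raises the correlations among libraries 1 and 3. Passing the bound thus cannot show that numbers 1 and 3 are paired. The pairing rests on the data alone, and blocked values stand beside a result where they changed its count.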

Additional observations from a re-analysis of the deposited data

How the results depend on the processing

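In all 15 alternatives 0 of the channel genes and 0 of the partner genes were called in limma at an adjusted p under 0.05. No class median moved by more than 1 SD of the spread between libraries. That SD, 0.16 to 0.32 over the classes, exceeded every class median, so a median could change sign and still count as unmoved. With median scaling the medians of every class but the two-pore genes did turn below 0. Values below are counts of channel genes. At an unadjusted p under 0.05, where the comparison as reported had 0 in each direction, the count lower in Rongchang was 1 without a filter (0.861% of all genes) and 1 with median scaling (1.89%), and the count higher was 2 with library weights (10.4%). With the replicate block 3 were higher (16%) and 1 lower (1.41%), with the block and median scaling 5 were lower (5.47%), and without both libraries numbered 2 there was 1 higher (8.11%) and 1 lower (0.836%). Leaving out 1 library at a time gave 0 to 2 higher (3.03% to 9.28% of all genes) and 0 to 1 lower (0.563% to 0.798%). Genes with every Rongchang library above the wild boars, 1 as reported, numbered 2 without a filter (10.2%), 0 with a mean of at least 5 FPKM (10.6%), 0 with median scaling, with or without the block (3.87%), 0 with quantile normalization (3.99%), and 14 without both libraries numbered 2 (38.1% of all genes). Genes with every Rongchang library below, 0 as reported, numbered 1 without a filter (1.5%), 4 with median scaling, with or without the block (5.03%), 2 with quantile normalization (4.71%) and 1 without both libraries numbered 2 (5.35%). Leaving out 1 library gave 2 to 12 above, the 12 without wild boar 2 (28.9% of all genes), and 0 to 4 below, the 4 without wild boar 1 (3.21%); with fewer libraries groups overlap less by construction. Partner genes with every Rongchang library above, 2 as reported, numbered 0 with median scaling (3.87% of all genes) or quantile normalization (3.99%). They numbered 6 without wild boar 2 (28.9%) and 6 without both libraries numbered 2 (38.1%).

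No named gene was called under any alternative. Some genes named outside the rule on level, fold change and p also turned below 0 with median scaling. Their fold changes were −0.130 for KCNN2, −0.133 for KCNB2, −0.089 for KCNC1 and −0.074 for KCNIP1. They were −0.033 for KCNA3, −0.027 for KCNH4, −0.026 for KCNQ3 and −0.025 for KCNH2. For genes named by that rule, signs turned as follows. With median scaling, alone or with the block, fold changes were −0.13 for KCNIP3, −0.082 for KCNIP4, −0.054 for KCNAB1, −0.087 for KCNN1, −0.046 for KCNT2, −0.037 for KCNJ9, −0.11 for KCNH3, −0.0055 for KCNV1, −0.14 for CALM2 and −0.054 for CALM3. Quantile normalization gave −0.097 for KCNIP3, −0.053 for KCNIP4, −0.038 for KCNAB1, −0.072 for KCNN1, −0.035 for KCNT2, −0.014 for KCNJ9, −0.081 for KCNH3 and −0.13 for CALM2. Library weights gave −0.091 for CALM2. Leaving out 1 library at a time gave −0.021 to 0.11 for KCNIP3, −0.087 to 0.22 for KCNIP4, −0.090 to 0.16 for KCNN1, −0.019 to 0.20 for KCNT2, −0.0052 to 0.37 for KCNJ4, −0.095 to 0.39 for KCNJ9, −0.041 to 0.39 for KCNJ6, −0.033 to 0.27 for KCNK4, −0.37 to 0.071 for KCNK3, −0.023 to 0.15 for KCNH3 and −0.13 to 0.19 for CALM2. Of genes that kept their sign, it gave 0.20 to 0.56 for KCND3, 0.015 to 0.47 for KCNMA1, 0.0077 to 0.42 for KCNK2, 0.066 to 0.39 for KCNT1, 0.082 to 0.46 for KCNJ5, 0.17 to 0.53 for KCNMB2, −0.53 to −0.14 for KCNA1, −0.41 to −0.18 for KCNJ14, −0.26 to −0.027 for KCNK1, −0.27 to −0.10 for KCNIP2, 0.018 to 0.24 for KCNV1, 0.052 to 0.18 for KCNAB1, 0.16 to 0.73 for ADAM22 and 0.0095 to 0.57 for ADAM23. Apart from the counts without libraries, the cause was not tested. Summing identifiers of 1 symbol was not run, since no KCN symbol had more than 1. Unknown depth sets no limit on values listed at 0.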
